A study of Mus musculus with 6 samples.

Results

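The 10 histone deacetylase genes described here were the rows of the deposited tables whose gene name was Hdac1, Hdac2, Hdac3, Hdac4, Hdac5, Hdac6, Hdac7, Hdac8, Hdac9 or Hdac11, and all 10 were found among 50383 gene IDs, with 1 row each. The RNA came from male 129xC57BL/6 hybrid mice, 2-3 months old, and from their lateral amygdala, where learned fear is thought to be stored. There were 3 groups of 2 libraries. The Baf53b siRNA group received a small interfering RNA against BAF53b, a neuronal subunit of the BAF nucleosome remodelling complex encoded by Actl6b, and the design text places this injection 1 day after training. The scrambled siRNA group is labelled with an interfering RNA of shuffled sequence, and the control group is labelled as control with no statement of what those mice received or whether they were trained. The labels mention tissue from 4 mice without saying whether a library is a pool, so p-values measure the spread between these libraries, which may be technical.

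Histone deacetylases remove acetyl groups from lysines, which on histones tightens chromatin and is associated with lower transcription, and inhibitors of these enzymes are known to strengthen memory in rodents. The zinc-dependent family is divided into classes. Class I enzymes (Hdac1, Hdac2, Hdac3 and Hdac8) are mainly nuclear, and the first 3 of these work inside corepressor complexes. Class IIa enzymes (Hdac4, Hdac5, Hdac7 and Hdac9) have little catalytic activity of their own, bind MEF2 transcription factors and shuttle between nucleus and cytoplasm when calcium-regulated kinases phosphorylate them. Hdac6 (class IIb) deacetylates tubulin in the cytoplasm, and Hdac11 is the sole class IV enzyme, with strong activity against fatty acyl groups on lysine.

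Promoter sequence is shown for the class IIa genes whose outermost RefSeq start (GRCm38.p6) lay at most 6 bases from the end of the gene interval in the tables, because this class held the member that varied most between libraries, Hdac7, and the member that varied least, Hdac9. Each line gives the 250 bases before the start on the minus strand of the gene, 5′ to 3′, in lower case, with motif matches in capitals. The windows are chr11:102230173-102230422 for Hdac5, chr15:97844503-97844752 for Hdac7 and chr12:34917096-34917345 for Hdac9.
Hdac5: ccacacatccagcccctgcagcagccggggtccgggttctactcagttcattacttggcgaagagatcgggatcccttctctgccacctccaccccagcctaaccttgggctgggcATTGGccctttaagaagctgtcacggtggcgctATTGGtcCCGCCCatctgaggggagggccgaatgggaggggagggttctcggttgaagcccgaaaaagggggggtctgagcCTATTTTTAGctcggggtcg
Hdac7: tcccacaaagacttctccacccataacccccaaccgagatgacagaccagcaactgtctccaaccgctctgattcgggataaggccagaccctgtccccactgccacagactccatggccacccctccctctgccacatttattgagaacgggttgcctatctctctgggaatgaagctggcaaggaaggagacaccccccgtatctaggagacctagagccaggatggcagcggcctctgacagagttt
Hdac9: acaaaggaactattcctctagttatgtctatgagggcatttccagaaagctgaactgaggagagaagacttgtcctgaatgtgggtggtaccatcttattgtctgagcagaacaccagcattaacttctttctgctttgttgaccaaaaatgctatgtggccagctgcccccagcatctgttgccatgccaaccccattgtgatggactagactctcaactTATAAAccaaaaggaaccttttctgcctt
The motifs searched on both strands were the GC box GGGCGG, the CCAAT box CCAAT, the cyclic AMP response motif TGACG, the E-box CACGTG, the TATA box TATAAA and the MEF2 motif. The Hdac5 window held 2 CCAAT boxes in reverse orientation, 1 GC box in reverse orientation and 1 MEF2 motif at -20 to -11 from the start, none of which overlapped another. The Hdac9 window held 1 TATA box at -29 to -24 and the Hdac7 window held no match. Among 32851 RefSeq windows of the same length, 32.7% held a GC box, 33.8% a CCAAT box, 17.8% a cyclic AMP response motif, 6.02% an E-box, 12.4% a TATA box and 2.92% a MEF2 motif. The windows held 12 CG dinucleotides for Hdac5, 6 for Hdac7 and 0 for Hdac9, where the median window held 6. RefSeq lists 4 starts for Hdac7 and 2 for Hdac9, so these windows cover only the outermost ones. The other Hdac7 windows held 5, 25 and 21 CG dinucleotides, with 1 GC box in the window of 25. The other Hdac9 window held 2 CG dinucleotides and no match. These matches describe letters only; promoter activity was not measured.

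The libraries were deposited as FPKM, fragments per kilobase of transcript and scaled to the fragments of the library, which can be set side by side between genes. By an estimate from the deposited confidence bounds, 6.43 to 10.7 M fragments stood behind a library and 85 to 1199 behind a member in a library, with counting error alone taken into account. The siRNA target Actl6b stood at 42.8 and 39.6 FPKM in Baf53b siRNA, against 43.8 and 43.9 in scrambled siRNA and 42.9 and 44.1 in control. Both Baf53b siRNA values lay below those of the other 4 libraries, as held for 3.07% of all genes tested. A two-sided exact permutation test of these 2 libraries against the other 4 gave p = 0.0667, the smallest this design allows. A fall was not detectable by limma (difference in log2(FPKM + 1) of -0.09 against scrambled siRNA, 95% interval -0.38 to 0.21, limma adjusted p = 1), so Baf53b siRNA stands throughout for the libraries labelled Baf53b siRNA. Neuron markers were abundant in every library, with a summed level of 2631 to 3007 FPKM in Baf53b siRNA, 2923 to 3050 in scrambled siRNA and 2888 to 2937 in control. In bulk tissue, fewer cells of a type and less RNA per cell cannot be told apart.

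All 10 deacetylases were expressed above the filter used for testing, a mean of 1 FPKM over the 6 libraries. The mean levels fell into an upper tier of 4 genes and a lower tier of 6. Hdac11 averaged 49.8 ± 7.32 FPKM and Hdac2 49.0 ± 4.80 FPKM (SD, n = 6 libraries), followed by Hdac5 at 38.5 ± 5.37 FPKM and Hdac3 at 35.3 ± 3.36 FPKM. The lower tier began with Hdac1 at 14.6 ± 1.12 FPKM, then Hdac6 at 13.0 ± 2.70 FPKM, Hdac9 at 12.4 ± 0.826 FPKM, Hdac4 at 9.03 ± 1.48 FPKM and Hdac8 at 7.67 ± 0.615 FPKM. Hdac7 was lowest at 4.48 ± 1.48 FPKM. Among all 14664 genes tested, the mean of Hdac11 stood at percentile 89.2 and that of Hdac7 at percentile 30.2.

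Neighbours in this order were compared within libraries by an exact sign-flip permutation test (two-sided, 6 libraries, smallest possible p = 0.0312, adjusted over 9 neighbouring pairs). The step between the tiers, from Hdac3 to Hdac1, was 1.22 ± 0.13 in log2 level (SD, n = 6) and was present in 6 of 6 libraries (exact p = 0.0312, adjusted p = 0.0938). The steps from Hdac9 to Hdac4 (0.43 ± 0.19) and from Hdac8 to Hdac7 (0.71 ± 0.35) were likewise present in 6 of 6 libraries with the same exact p and adjusted p. Hdac11 and Hdac2 could not be ranked, with Hdac11 higher in 3 of 6 libraries (exact p = 0.938), nor could Hdac6 and Hdac9 (exact p = 0.781) or Hdac1 and Hdac6 (exact p = 0.188). No neighbouring pair passed after adjustment. With 6 libraries a pair could pass only if most of the 9 pairs reached the smallest possible p. Missing the threshold therefore does not show that levels were equal. The order and its tiers were read from these same libraries.

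**Figure D1:**
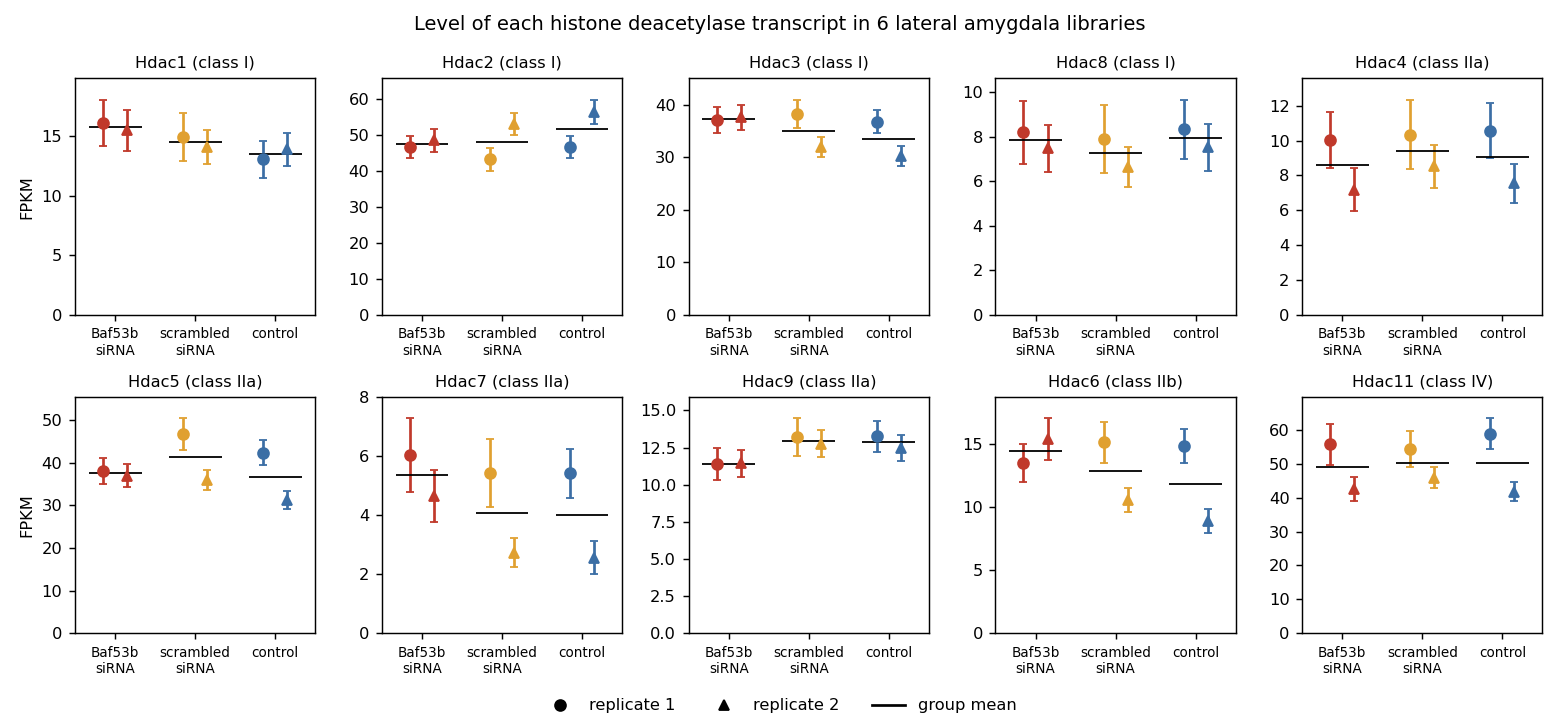
FPKM of each histone deacetylase (y axis, linear from 0) in the libraries of Baf53b siRNA, scrambled siRNA and control (x axis); circles are replicate 1, triangles replicate 2, error bars the deposited confidence intervals and black lines group means. For their level, group means lie furthest apart for Hdac7 (5.35, 4.08 and 4.00 FPKM in the order of the x axis) and Hdac6 (14.4, 12.8 and 11.8 FPKM). The replicates of scrambled siRNA and control stand apart for Hdac2, Hdac3, Hdac5, Hdac6, Hdac7 and Hdac11.

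The level of Hdac11 carries a limit from the annotation. Gm44002 (chromosome 6, 91173425 to 91174018, mm10), a gene model on the opposite strand, lies over its whole length of 594 bases within exon sequence of Hdac11. It was listed at 82.4 and 70.3 FPKM in Baf53b siRNA, 88.9 and 71.9 in scrambled siRNA and 86.7 and 67.2 in control. The kit keeps strand per the labels, but whether counting used it is not given in the sources used here, so reads of Hdac11 and Gm44002 cannot be told apart. Hdac4 likewise has an opposite gene, Gm26720, but that gene was listed at or under 0.0841 FPKM in every library. Hdac1 has a processed pseudogene copy, Gm10093, 99.4% identical over 1444 bases, which was listed at a mean of 1.22 FPKM. Another, Gm4864, 94.6% identical over 1469 bases, was listed at a mean of 0.451 FPKM. A further copy, AC125456.1, 96.3% identical over 1450 bases, was not listed. Some of the Hdac1 reads may be split between these copies, and their part in the group differences of Hdac1 was not tested.

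The first comparison asked whether the class I enzymes differed in the libraries labelled Baf53b siRNA. Hdac1 (ENSMUSG00000028800.15, chromosome 4, 129516104 to 129542713, minus strand) and Hdac2 (ENSMUSG00000019777.16, chromosome 10, 36974544 to 37001889, plus strand) are paralogs that share the Sin3, NuRD and CoREST complexes, and Hdac2 is the form known in mice for restraining memory. Hdac1 was at 16.1 and 15.5 FPKM in Baf53b siRNA, 14.96 and 14.11 in scrambled siRNA and 13.1 and 13.9 in control. Both libraries of each group lay apart from those of the next, in the order Baf53b siRNA, scrambled siRNA, control. The difference in log2(FPKM + 1) was 0.11 against scrambled siRNA (SE 0.13, 95% interval -0.19 to 0.42) and 0.21 against control (SE 0.13, 95% interval -0.09 to 0.52), with a limma adjusted p of 1 for both. Of all genes tested, 3.44% showed this upward order over the 3 groups, and the deposited intervals of Hdac1 overlapped between all pairs of libraries.

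Hdac2 was at 46.5 and 48.4 FPKM in Baf53b siRNA, 43.2 and 52.9 in scrambled siRNA and 46.6 and 56.3 in control. The Baf53b siRNA libraries lay between the scrambled siRNA libraries, and the difference was -0.01 (SE 0.16, 95% interval -0.39 to 0.37). Against control it was -0.11 (SE 0.16, 95% interval -0.49 to 0.27). Hdac2 exceeded Hdac1 by a ratio of 2.89 and 3.12 in Baf53b siRNA, 2.89 and 3.75 in scrambled siRNA and 3.57 and 4.05 in control. The ratios of Baf53b siRNA and scrambled siRNA overlapped, while both Baf53b siRNA ratios lay below both control ratios. This ratio was examined after the values were seen, and the share of other gene pairs lying apart in this way was not counted. Hdac1 itself lay above control in both Baf53b siRNA libraries, so the ratio is no separate result.

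Hdac3 (ENSMUSG00000024454.15, chromosome 18, 37935844 to 37954988, minus strand), the catalytic subunit of the NCoR and SMRT complexes, was at 37.1 and 37.6 FPKM in Baf53b siRNA, 38.2 and 31.9 in scrambled siRNA and 36.8 and 30.2 in control. The groups overlapped with scrambled siRNA (difference 0.09, SE 0.16), and both Baf53b siRNA libraries lay above both control libraries (0.16, SE 0.16, 95% interval -0.21 to 0.53). Hdac8 (ENSMUSG00000067567.12, chromosome X, 102284639 to 102505359, minus strand), which deacetylates the cohesin subunit SMC3, was at 8.19 and 7.47 FPKM in Baf53b siRNA, 7.90 and 6.63 in scrambled siRNA and 8.32 and 7.51 in control. Its libraries overlapped in every comparison, and the differences of Baf53b siRNA were 0.10 against scrambled siRNA and -0.01 against control (SE 0.15 each).

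Among the class IIa enzymes, Hdac9 (ENSMUSG00000004698.10, chromosome 12, 34047580 to 34917095, minus strand), which binds and represses MEF2 factors, was the most even member. It was at 11.41 and 11.44 FPKM in Baf53b siRNA, 13.2 and 12.7 in scrambled siRNA and 13.3 and 12.5 in control. In Baf53b siRNA both values were under those of the other 4 libraries, which held for 3.07% of all genes tested, while 8.03% had both values above, as Hdac1 did. The differences were -0.17 against scrambled siRNA (SE 0.13, 95% interval -0.47 to 0.14) and -0.16 against control (SE 0.13, 95% interval -0.46 to 0.15), neither of which passed (limma adjusted p = 1). A two-sided exact permutation test of the 2 Baf53b siRNA libraries against the other 4 gave p = 0.0667 for Hdac9 and also for Hdac1, the smallest p this design allows. Adjusted over all members, this exact p was 0.333 for both, and the remaining members had an unadjusted exact p of 0.333 to 0.933. Hdac1 and Hdac9 were singled out because their values lay apart from the other 4 libraries. The exact test on the same values restates that position and adds no support for a difference. The deposited intervals of Hdac9 overlapped between all pairs of libraries.

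Hdac5 (ENSMUSG00000008855.17, chromosome 11, 102194432 to 102230166, minus strand), a class IIa enzyme exported from the nucleus by activity, was at 38.1 and 37.0 FPKM in Baf53b siRNA, 46.7 and 35.9 in scrambled siRNA and 42.3 and 31.2 in control. The Baf53b siRNA libraries lay inside the range of both other groups. Its differences were -0.12 against scrambled siRNA and 0.04 against control (SE 0.19 each). Hdac4 (ENSMUSG00000026313.16, chromosome 1, 91928779 to 92195699, minus strand), whose deletion in the forebrain impairs memory in mice, was at 10.02 and 7.17 FPKM in Baf53b siRNA, 10.3 and 8.52 in scrambled siRNA and 10.6 and 7.56 in control. These groups overlapped, with differences of -0.13 and -0.07 against scrambled siRNA and control (SE 0.22 each).

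Hdac7 (ENSMUSG00000022475.18, chromosome 15, 97792664 to 97844502, minus strand), which is known for its roles in endothelium and lymphocytes, had the widest range of any member. It was at 6.05 and 4.66 FPKM in Baf53b siRNA, 5.42 and 2.73 in scrambled siRNA and 5.43 and 2.57 in control. Replicate 2 of scrambled siRNA and of control stood low, and the groups overlapped. The differences of 0.37 against scrambled siRNA (SE 0.35, 95% interval -0.46 to 1.19) and 0.40 against control (SE 0.35, 95% interval -0.43 to 1.23) were the largest of the family. Of all genes tested, 5.54% and 8.23% differed more. These differences were about as large as their standard errors in this fit, which does not use the replicate number. With replicate number as a block the SE was 0.17 for both (limma, unadjusted p = 0.0798 and 0.0620). Neither was called after adjustment (limma adjusted p = 0.668 against control). Each Baf53b siRNA value lay above the same-numbered values of both other groups. The share of all genes placed in this way was not counted, and the labels do not say that a number marks a pair. The difference was -0.02 without scrambled siRNA replicate 2 and -0.03 without control replicate 2, and 0.76 and 0.82 without replicate 1 of the same groups. Those fits set both Baf53b siRNA libraries against 1 replicate number. Endothelial markers summed to 102 and 115 FPKM in Baf53b siRNA, 104 and 97.1 in scrambled siRNA and 91.3 and 75.8 in control, with 0 of 13 called in any comparison and none at 0. Their part in the values of Hdac7 was not tested.

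Hdac6 (ENSMUSG00000031161.15, chromosome X, 7930120 to 7947889, minus strand) was at 13.5 and 15.4 FPKM in Baf53b siRNA, 15.1 and 10.5 in scrambled siRNA and 14.8 and 8.88 in control. Replicate 2 of scrambled siRNA and of control again stood low. Its differences were 0.18 against scrambled siRNA (SE 0.26, 95% interval -0.44 to 0.79) and 0.30 against control (SE 0.26, 95% interval -0.31 to 0.92). These too turned, to -0.06 without scrambled siRNA replicate 2 and to -0.04 without control replicate 2. They were 0.42 and 0.64 without replicate 1 of the same groups. As for Hdac7, those fits set both Baf53b siRNA libraries against 1 replicate number. Hdac11 (ENSMUSG00000034245.10, chromosome 6, 91156665 to 91174692, plus strand) was at 55.7 and 42.6 FPKM in Baf53b siRNA, 54.3 and 45.8 in scrambled siRNA and 58.8 and 41.8 in control, with Gm44002 moving between replicates in the same direction. The groups overlapped, and both differences were -0.03 (SE 0.21).

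**Figure D2:**
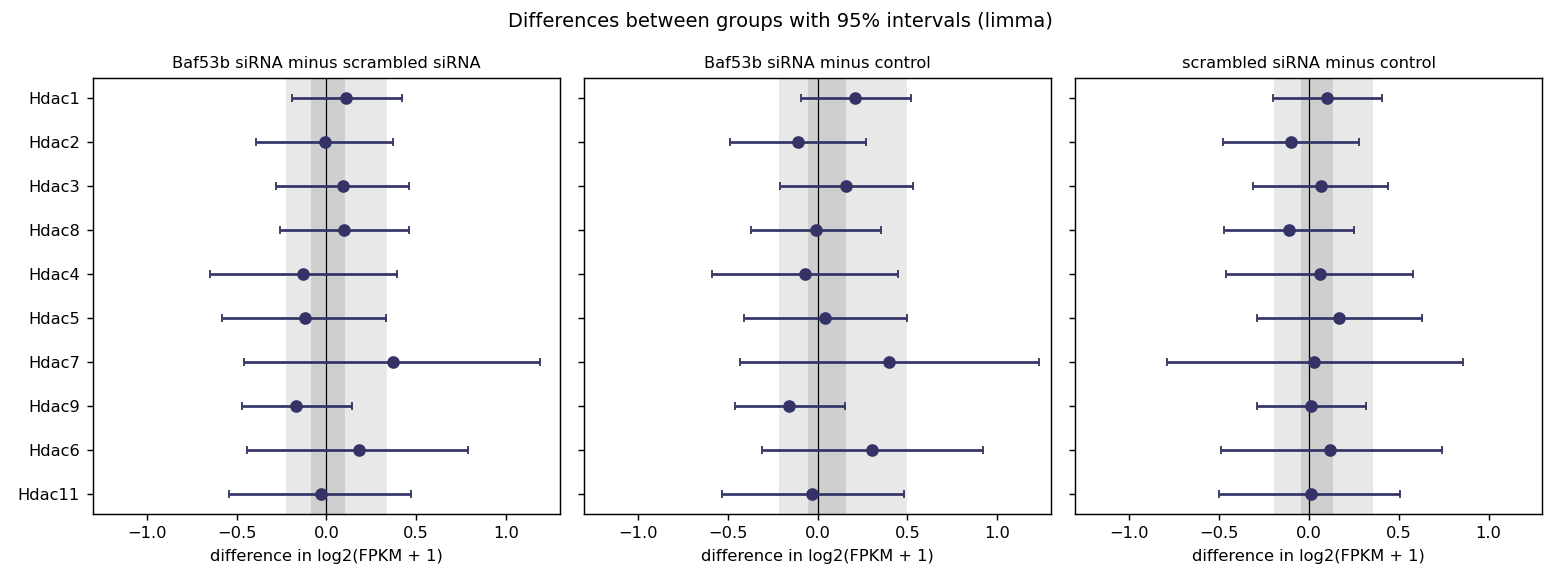
Difference in log2(FPKM + 1) between groups (x axis) for each histone deacetylase (rows), with 95% intervals from limma, for 3 comparisons; dark and light grey bands hold the middle 50% and 90% of all genes tested. Every interval includes 0, and the widest belong to Hdac7.

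Over the family, 0 of 10 members were called in Baf53b siRNA against scrambled siRNA (limma, adjusted p under 0.05), and 0 of 10 had an unadjusted p under 0.05. The background was 0.123% of genes called, all higher, and 3.03% at an unadjusted p under 0.05. By sign 5 members were higher and 5 lower, and the median difference was 0.04, beside 0.00 over all genes. Libraries did not overlap for 2 of 10 members, Hdac1 above and Hdac9 below, where 22.1% of all genes did not overlap (13.1% above, 9% below). Against control, 0 of 10 members were called and 0 passed without adjustment, where 1.23% of genes were called and 5.02% passed without adjustment. Here 3 of 10 did not overlap (Hdac1 and Hdac3 above, Hdac9 below), where 23.8% of all genes did not (16.7% above, 7.11% below), and the median was 0.02 beside 0.04 over all genes. These comparisons share the Baf53b siRNA libraries. The number of members without overlap was close to the background in both.

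Scrambled siRNA was also set against control. Here 0 of 10 members and 0% of all genes were called (limma), and 0 of 10 members passed at an unadjusted p under 0.05, where 2.22% of all genes did. The largest member difference was 0.17, for Hdac5 (SE 0.19, 95% interval -0.29 to 0.63), and the median was 0.05 beside 0.04 over all genes. Hdac1 was the 1 member whose libraries did not overlap, and it lay above, where 18.3% of all genes did not overlap (12.7% above, 5.57% below).

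The 95% intervals describe the size of a difference for 1 gene at a time, by the spread between these libraries, which may be technical. They are not adjusted over members or for singling out Hdac1 and Hdac9 by their values. For Hdac1 and Hdac9, the interval against scrambled siRNA ended at 0.42 and -0.47, so larger shifts in log2(FPKM + 1) in the direction of the difference lay outside it. These members had the smallest SE. Other intervals against scrambled siRNA were wider and reached 1.19 for Hdac7, 0.79 for Hdac6 and -0.65 for Hdac4. A p that misses the threshold does not show that levels were equal.

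The family total overlapped between groups. The 10 genes summed to 243 and 227 FPKM in Baf53b siRNA, 249 and 222 in scrambled siRNA and 249.9 and 212 in control. Class I enzymes made up 44.5% and 48.0% of this sum in Baf53b siRNA, 41.8% and 47.6% in scrambled siRNA and 41.9% and 50.8% in control. Class IIa enzymes made up 27.0% and 26.5% in Baf53b siRNA, 30.3% and 27.0% in scrambled siRNA and 28.6% and 25.3% in control. The groups overlapped for both classes, and the spread inside scrambled siRNA and control exceeded the distance between group means. In every library Hdac2, Hdac3, Hdac5 and Hdac11 were the 4 most abundant members.

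**Figure D3:**
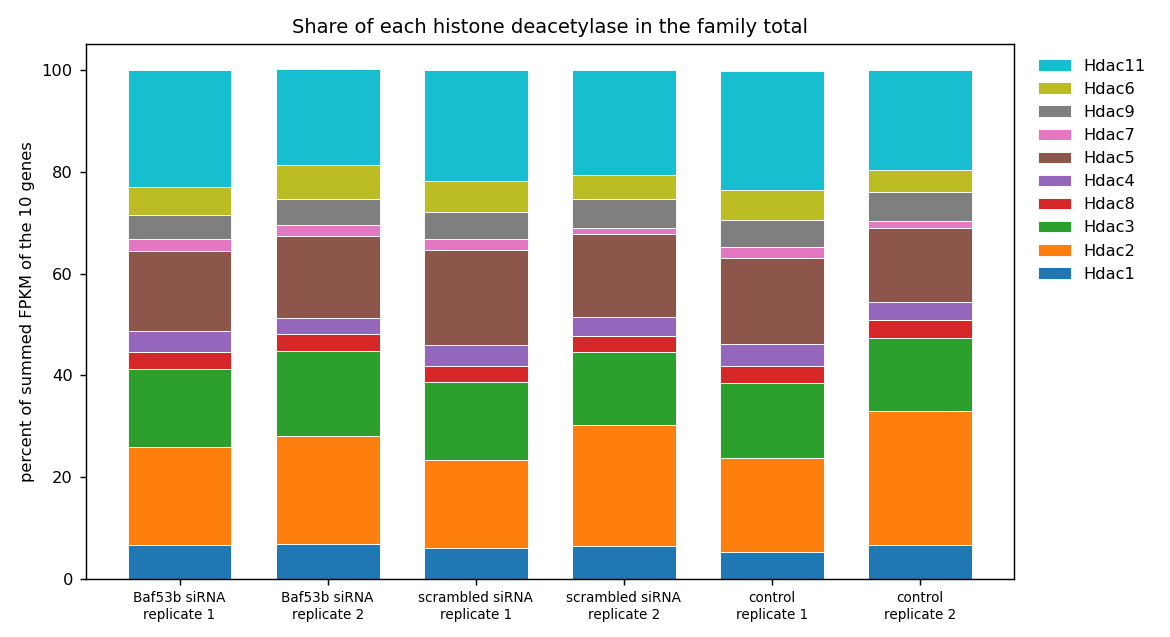
Share of each histone deacetylase in the summed FPKM of the 10 genes (y axis, percent) for each library (x axis), stacked from Hdac1 at the bottom to Hdac11 at the top. The share of Hdac2 is 17.3% in scrambled siRNA replicate 1 and 26.5% in control replicate 2, the extremes of the 6 libraries. The Baf53b siRNA libraries stand apart from the other 4 for Hdac1 (6.64% and 6.83%, against 6.00% and 6.36% in scrambled siRNA and 5.22% and 6.55% in control) and for Hdac9 (4.70% and 5.04%, against 5.29% and 5.75% in scrambled siRNA and 5.31% and 5.87% in control). Hdac1 and Hdac9 also stand apart in FPKM, as 11.1% of all genes tested do, so these shares are no separate result.

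For several members the libraries of a group stood further apart than the group means. The deposited intervals of the 2 libraries of a group were apart in 15 of 30 cases (10 members in 3 groups; for Hdac4 in Baf53b siRNA the bounds all but touched), and those of libraries of different groups in 37 of 120 cases. Intervals were not counted over all genes, so these counts do not show whether the members differ from other genes. Hdac7 was higher in replicate 1 than in replicate 2 by 0.32 in Baf53b siRNA, 0.78 in scrambled siRNA and 0.85 in control on the log2(FPKM + 1) scale. In scrambled siRNA 2.42% of all genes, and in control 3.59%, differed more than this between replicates. Hdac6 differed by -0.18 in Baf53b siRNA, 0.48 in scrambled siRNA and 0.68 in control, so its direction turned in the Baf53b siRNA group. Hdac2 ran the other way, at -0.05 in Baf53b siRNA, -0.29 in scrambled siRNA and -0.27 in control.

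Of 10 members 6 had the same direction between replicates in all 3 groups (Hdac4, Hdac5, Hdac7, Hdac8 and Hdac11 higher in replicate 1, Hdac2 lower), where 48.5% of all genes did. Hdac4 was higher in replicate 1 by 0.43 in Baf53b siRNA, 0.25 in scrambled siRNA and 0.43 in control, and Hdac11 by 0.38, 0.24 and 0.48 in the same groups. The median gene was higher in replicate 1 by 0.07 in Baf53b siRNA, 0.13 in scrambled siRNA and 0.11 in control. Mitochondrially encoded genes accounted for 19.3% and 22.8% of all FPKM in replicates 1 and 2 of Baf53b siRNA, 15% and 26.9% in scrambled siRNA and 19.4% and 29.5% in control. The part of this share in the replicate differences was not tested. The labels name no batch.

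**Figure D4:**
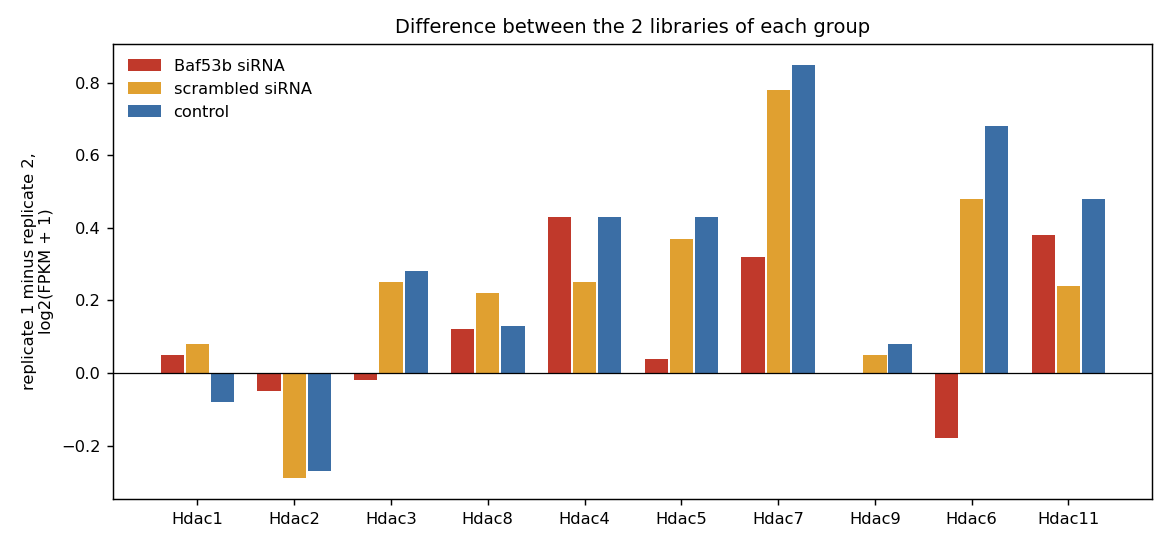
Replicate 1 minus replicate 2 in log2(FPKM + 1) (y axis) for each histone deacetylase (x axis) in Baf53b siRNA, scrambled siRNA and control (bars). Hdac7 reaches 0.85 in control, Hdac2 lies below 0 in all 3 groups, and the bars of Hdac6 and Hdac3 turn below 0 in Baf53b siRNA.

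Over the 6 libraries, the range of log2(FPKM + 1) was 0.98 for Hdac7, wider than in all but 7.89% of genes tested, and 0.20 for Hdac9, narrower than in 91.7%. The genes whose centred log2 profile over the 6 libraries lay nearest to that of Hdac7 were Wdr4 (root mean square difference 0.055) and Qtrt1 (0.075). Hdac10, a deacetylase in the tables that is not among the 10 members, was at 3.55 and 3.42 FPKM in Baf53b siRNA, 4.23 and 2.61 in scrambled siRNA and 3.71 and 1.99 in control, and was lower in replicate 2 of every group.

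The partners through which these enzymes act were followed as lists. Of 42 tested subunits of the class I corepressor complexes, 0 were called in any of the 3 comparisons, and their median difference against scrambled siRNA was 0.02 beside 0.00 over all genes. The nearest to a difference were Rcor2, a CoREST scaffold, at 3.70 and 5.10 FPKM (means of Baf53b siRNA and scrambled siRNA, difference -0.38, SE 0.27), Sap30 of the Sin3 complex at 3.86 and 3.16 FPKM (0.22, SE 0.20) and Gps2 of the NCoR complex at 12.6 and 11.1 FPKM (0.16, SE 0.15). Of 38 tested MEF2 factors, kinases, phosphatase and adaptor partners of class IIa enzymes 0 were called in any comparison (median -0.01 against scrambled siRNA). Here Prkd3 and Prkd1, protein kinases D that drive nuclear export of class IIa enzymes, were at 4.60 and 3.52 FPKM (0.31, SE 0.15) and at 2.37 and 1.95 FPKM (0.19, SE 0.16). The calcium-dependent kinase Camkk2 was at 36.7 and 42.2 FPKM (-0.19, SE 0.15).

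Of 17 tested genes around Hdac6, from the tubulin acetyltransferase Atat1 to the aggresome adaptor Sqstm1, 0 were called in any comparison (median -0.06 against scrambled siRNA). Examples were Plaa, a ubiquitin-binding protein, at 17.7 and 15.6 FPKM in Baf53b siRNA and scrambled siRNA (0.17, SE 0.15), the chaperone Hsp90aa1 at 518 and 589 FPKM (-0.19, SE 0.27) and Sqstm1 at 204 and 216 FPKM (-0.08, SE 0.15). All 7 sirtuins, which deacetylate with NAD in place of zinc, were tested and 0 were called in any comparison. Sirt4 was at 10.6 and 7.36 FPKM in Baf53b siRNA and scrambled siRNA (0.54, SE 0.33), Sirt5 at 4.64 and 5.69 FPKM (-0.24, SE 0.22) and Sirt1 at 5.76 and 5.32 FPKM (0.10, SE 0.19). The sirtuin median was 0.05 against scrambled siRNA and 0.19 against control, beside 0.00 and 0.04 over all genes.

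Of 16 activity-regulated and synaptic genes on whose promoters deacetylases are known to act, 0 were called in any comparison. The immediate early genes Fos, Egr1 and Egr2 were at 4.81 and 3.21 FPKM (0.47, SE 0.18), 29.3 and 33.5 FPKM (-0.20, SE 0.16) and 2.74 and 1.99 FPKM (0.30, SE 0.26) in Baf53b siRNA and scrambled siRNA.

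Lists of glial and immune cell genes differed between the same libraries, and their levels are given beside the deacetylase values. The 12 reactive astrocyte genes summed to 426 and 428 FPKM in Baf53b siRNA, 137 and 121 in scrambled siRNA and 65.0 and 69.8 in control. Gfap, H2-D1, Serpina3n and Vim, at means of 173.8, 88.8, 59.3 and 48.4 FPKM, made up most of the Baf53b siRNA sum. The reactive astrocyte sum therefore mainly follows these genes and is no measure of astrocyte number. The 15 infiltrating leukocyte markers summed to 477 and 226 FPKM in Baf53b siRNA, 34.3 and 24.9 in scrambled siRNA and 6.97 and 5.601 in control. These sums hold every listed gene, and no count of calls is given for the 2 lists because C3, Osmr and Ccl5 passed the filter only through their level in Baf53b siRNA. Most of the leukocyte sum in Baf53b siRNA came from Cd74, H2-Aa, H2-Eb1 and H2-Ab1, at means of 156.5, 69.7, 46.8 and 33.2 FPKM. That sum therefore mainly follows these genes and is no measure of leukocyte number. The T cell markers Cd3e, Cd3g and Cd8a were under a mean of 1 FPKM and at 0 in at least 1 library. Ccr2, Cd4, Itgal, Itgax and Nkg7 of the same list were also under a mean of 1 FPKM. Microglia markers, all 14 of which were tested, were called in 0 against scrambled siRNA and 10 against control, and summed to 1188 and 979.8 FPKM in Baf53b siRNA, 665 and 657 in scrambled siRNA and 378 and 372 in control. The microglia calls against control were 4 without Baf53b siRNA replicate 1 and 5 without either control library. The order of groups in these sums was that of Hdac1, and the part of these cells in the values of Hdac1 was not tested.

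The other cell type lists held at most 1 called gene. Neuron markers were called in 0 of 15 in each comparison, with a median of -0.07 against scrambled siRNA. Astrocyte markers were called in 0 of 12 against scrambled siRNA and 1 of 12 (Aqp4, 0 without any 1 of the 6 libraries) against control, and summed to 1192 and 1192 FPKM in Baf53b siRNA, 1237 and 1115 in scrambled siRNA and 1059.6 and 1157 in control. Oligodendrocyte markers, from a cell type known to express Hdac11, summed to 1039.5 and 1031 FPKM in Baf53b siRNA, 1061 and 1137 in scrambled siRNA and 790.0 and 997 in control. The library with the higher Hdac11 had the higher oligodendrocyte sum in Baf53b siRNA and the lower one in scrambled siRNA and control, and the part of these cells in Hdac11 was not tested. Oligodendrocyte precursor markers were called in 0 of 8, with a median of 0.08 against scrambled siRNA.

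**Figure D5:**
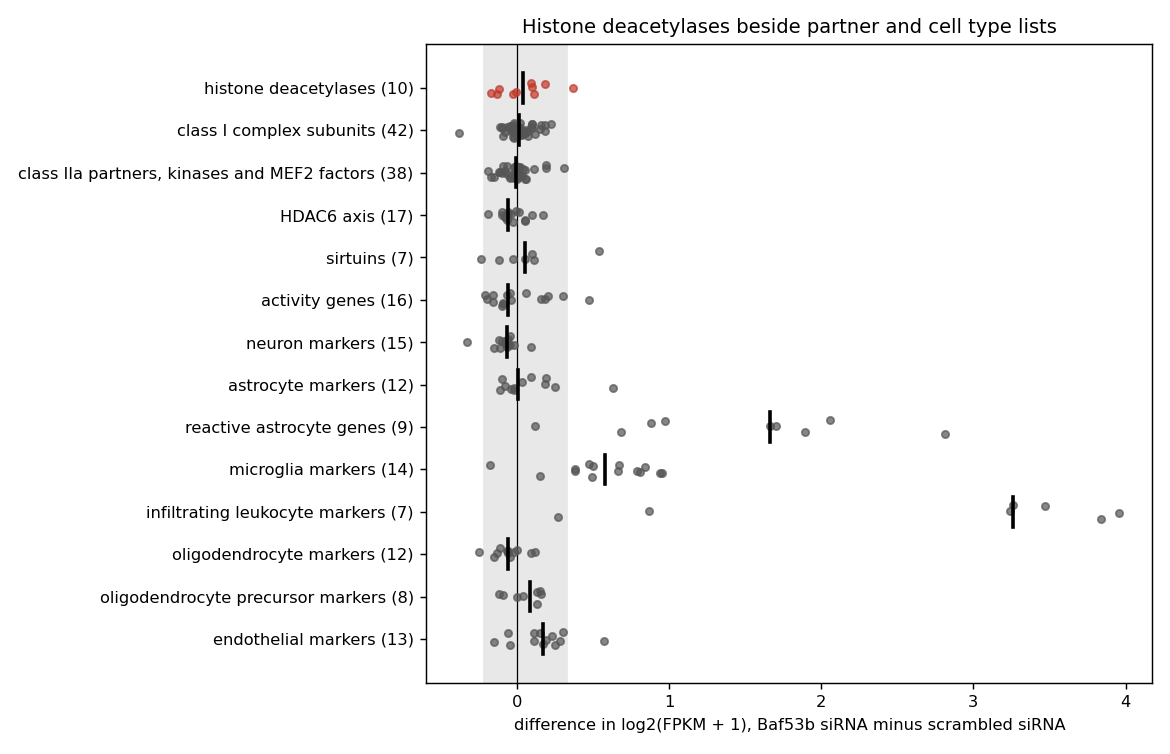
Difference in log2(FPKM + 1) of Baf53b siRNA minus scrambled siRNA (x axis) for the tested genes (points) of the lists described (rows, number of genes in brackets), with list medians as vertical bars and the middle 90% of all genes in grey. The histone deacetylases have a median of 0.04, and microglia markers have a median of 0.58; the reactive astrocyte and infiltrating leukocyte rows hold only the genes that passed the filter on low values.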

How the data were processed

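Messenger RNA of 6 lateral amygdala libraries was selected with oligo-dT, made into stranded libraries and sequenced from both ends, per the labels' protocols. The tools listed in the submitters' processing notes are Cufflinks 2.2.1, TopHat2 2.1.1 and bcl2fastq 2.19.1.403, and the build is mm10. The authors deposited FPKM per gene with bounds of a confidence interval, per the file headers. The sources used here name neither settings nor an annotation release.

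Rows of 48 repeated gene IDs were summed, 92 spike-in rows and 4 genes with a failed estimate were left out. Values were taken as log2(FPKM + 1), a pseudocount of 1. Genes with a mean of at least 1 FPKM were kept without 353 small RNA genes, and 14664 were tested with limma 3.58.1 in R 4.3.3 (group means over all 6 libraries, eBayes with trend, 3 residual degrees of freedom, two-sided, Benjamini-Hochberg adjustment at 0.05). The fit was tested on simulated data. Fragments were estimated from interval widths, on the assumption that each bound lies 2 Poisson errors from the value. Pseudogene copies were sought with BLAST 2.17.0 (at least 90% identity over 200 bases), and overlaps in GENCODE M21. RefSeq promoters were found for 8 of 10 members, not for Hdac1 and Hdac3.

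Members and lists were chosen with earlier results of these data known. All members were named. From each partner list, genes called in a comparison were to be named and otherwise the 3 with the smallest unadjusted p against scrambled siRNA. The 17 alternatives comprised pseudocounts, filters, scalings, fits and each library left out. The result of 1 list is not reported here.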

Additional observations from a re-analysis of the deposited data

Results flagged for a closer look

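A set of 92 spike-in rows, absent from the labels' text, entered no comparison and stood above control in both Baf53b siRNA libraries. The rows summed to 4820 and 811 FPKM in replicates 1 and 2 of Baf53b siRNA, 207 and 656 in scrambled siRNA and 117 and 125 in control. The members were not rescaled by these rows.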

How the results depend on the processing

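The members were refitted under 17 alternatives, among them other pseudocounts, filters, scalings and fits and each library left out. In every one, 0 of 10 members were called in each comparison (limma), and the smallest adjusted p was 0.466, for Hdac6 against control without control replicate 1. Of 507 member values 0 changed their call and 48 changed sign. Hdac1 kept its sign in both comparisons of Baf53b siRNA (0.07 to 0.15 against scrambled siRNA, 0.14 to 0.26 against control), as did Hdac9 (-0.19 to -0.15 and -0.23 to -0.12). Hdac7 was not tested at a minimum mean of 5 FPKM. Over all genes, the calls ranged from 0 to 30 against scrambled siRNA, from 34 to 188 against control and from 0 to 7 for scrambled siRNA against control. Microglia calls against control ranged from 2 to 12.

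With a replicate block, 13 genes were called against scrambled siRNA, 188 against control and 0 for scrambled siRNA against control, where the fit without it called 18, 181 and 0, and the block changed no call of a member. Deviations of same-numbered libraries from their group means correlated over 14664 genes, which are not independent, at 0.359 for Baf53b siRNA and scrambled siRNA, 0.183 for Baf53b siRNA and control and 0.390 for scrambled siRNA and control. The labels do not say that a number marks a shared animal, day or batch. As few as 85 estimated fragments stood behind a value of Hdac7.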
